A study of Rattus norvegicus with 24 samples.

Results

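The 9 genes described here encode enzymes that lengthen, desaturate or activate long-chain fatty acids, among them the enzymes that make polyunsaturated fatty acids in liver. They were chosen by name: Fads1, Fads2, Elovl1, Elovl2, Elovl5, Scd2, Acsl3, Acsl4 and Acsl5, found by matching the Entrez gene IDs of the count tables to rat gene symbols. All 9 had a row among the 15319 gene IDs. The liver RNA came from 24 adolescent Sprague-Dawley rats, an outbred laboratory stock, with 1 bulk RNA sequencing library per animal. The series set out to measure how liver gene expression differs after inhalation of PCB 52, a polychlorinated biphenyl, in each sex. Females and males were each split into sham and PCB 52 animals, which gives 4 groups of 6. Exposed animals breathed PCB 52 through a nose-only system for 4 hours a day over 28 days. The same schedule is listed for the sham groups, and all groups share an airflow of 12 L per minute and arrival at 28 days of age. Males were 39 days old at the start and females 42 days old. What the sham animals breathed is not stated in the labels. All animals were trained in the apparatus and ate the same stock diet, and no genetic modification is named. Sham animals carry the numbers 1 to 12 and exposed animals 13 to 24, so exposure and animal number cannot be told apart.

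In liver, dietary linoleic and alpha-linolenic acids become arachidonic, eicosapentaenoic and docosahexaenoic acids through alternating steps of desaturation and elongation. FADS2 makes the first double bond of this route and FADS1 a later one, while ELOVL5 and ELOVL2 add carbons between and after them. Long-chain acyl-CoA synthetases activate fatty acids for phospholipids, triglycerides or oxidation. The 9 genes are not all specific to polyunsaturated chains. SCD2 makes monounsaturated fatty acids, ELOVL1 extends mainly very long saturated and monounsaturated chains, and of the synthetases ACSL4 is the one best known for preferring arachidonic acid. The rat genes have the Entrez IDs 84575 (Fads1), 83512 (Fads2), 679532 (Elovl1), 498728 (Elovl2), 171400 (Elovl5), 83792 (Scd2), 114024 (Acsl3), 113976 (Acsl4) and 94340 (Acsl5).

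Library totals ran from 6994832 to 9185511 counts. The members had between 57 and 10393 counts in a library, and all 9 passed each of the filters on low counts. Levels are given as CPM, the counts of a gene relative to its library's total scaled by edgeR's TMM factors. They are not corrected for gene length, so levels are compared between groups and never between genes. Hepatocyte markers had the highest summed CPM of the marker lists in every library, from 141400 to 199500. Alb alone ran from 87590 to 139100 CPM. Of 5 adipocyte markers, Plin1 and Lep had no count in any library, and Adipoq and Fabp4 reached at most 0.12 and 3.05 CPM. The remaining adipocyte marker, Cidec, ran from 46.4 to 81.0 CPM. A principal axis of within-group variation, calculated without the members and explaining 13.2% of that variation, took similar values in animals of neighbouring number in both sexes. Animals 13 to 16 scored 12.9 to 21.8 on it, animals 11 and 12 scored 13.1 and 13.4, and animals 17 to 20 scored from −17.4 to −12.5. For some results, values without animals 13 to 16 or with the axis in the model are therefore given too.

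Fads1, Fads2 and Acsl5 carry the main patterns below, so the 250 bases before their annotated start are shown first, in RefSeq's GRCr8 assembly. All 9 members had such a window in RefSeq. The windows lie at chr1:216252442-216252691 on the plus strand for Fads1, chr1:216172034-216172283 on the minus strand for Fads2 and chr1:264294601-264294850 on the plus strand for Acsl5. Capitals mark matches to 1 of 4 motifs searched on both strands, which were CCAAT, the sterol regulatory element TCACNCCAC, the E-box CACGTG and the STAT5 site TTCNNNGAA.
Fads1: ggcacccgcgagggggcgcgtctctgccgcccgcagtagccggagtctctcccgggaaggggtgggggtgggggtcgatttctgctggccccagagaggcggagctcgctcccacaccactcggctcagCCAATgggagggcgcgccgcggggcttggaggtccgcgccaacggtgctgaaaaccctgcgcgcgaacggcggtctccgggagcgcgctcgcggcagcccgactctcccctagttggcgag
Fads2: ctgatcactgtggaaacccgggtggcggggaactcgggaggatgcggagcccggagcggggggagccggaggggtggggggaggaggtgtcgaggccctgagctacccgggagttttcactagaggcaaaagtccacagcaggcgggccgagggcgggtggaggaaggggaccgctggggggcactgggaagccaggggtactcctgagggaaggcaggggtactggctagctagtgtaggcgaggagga
Acsl5: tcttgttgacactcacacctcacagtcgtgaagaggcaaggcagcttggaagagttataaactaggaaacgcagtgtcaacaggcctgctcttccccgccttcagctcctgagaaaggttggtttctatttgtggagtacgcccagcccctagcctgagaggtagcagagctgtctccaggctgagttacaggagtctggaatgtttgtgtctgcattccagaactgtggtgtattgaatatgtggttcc

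The Fads1 window held 1 CCAAT box, 121 bases before the start, and the Fads2 and Acsl5 windows held no match to any of the 4 motifs. Of the other members, Elovl5 had 2 CCAAT boxes and 1 E-box, Scd2 had 2 CCAAT boxes and Acsl3 had 1. Among 33469 promoter windows of the same length, CCAAT occurred in 34.0%, TCACNCCAC in 0.974%, CACGTG in 5.59% and TTCNNNGAA in 7.67%. A match is only a run of letters and a missing match says nothing about a factor. The Fads1 and Fads2 windows were rich in G and C, at 73.2% and 68.0%, against 50.4% for Acsl5 and a median of 51.2% over all windows. Fads1 and Fads2 are neighbours on chromosome 1 in that assembly, in the order Fads3, Fads2, Fads1, Fen1, with Fads1 and Fads2 on opposite strands.

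Sex gave the large contrast among these genes. In sham animals 7 of the 9 members were higher in females than in males, 0 were lower, and Elovl5 and Scd2 did not pass the test. Over all 10535 genes tested, 20.3% were called in either direction and 10.7% were called higher in females. In PCB 52 animals again 7 of 9 were higher in females, against 19.9% of all genes called in either direction and 10.1% called higher in females. The members' median log2 difference was 0.82 in sham animals and 0.81 in PCB 52 animals, while the medians of all genes were 0.00 in both. Females and males were deposited in separate tables and started exposure at different ages, so sex, table and age cannot be told apart. In bulk liver, fewer cells of a type and less RNA per cell cannot be told apart either.

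**Figure D1:**
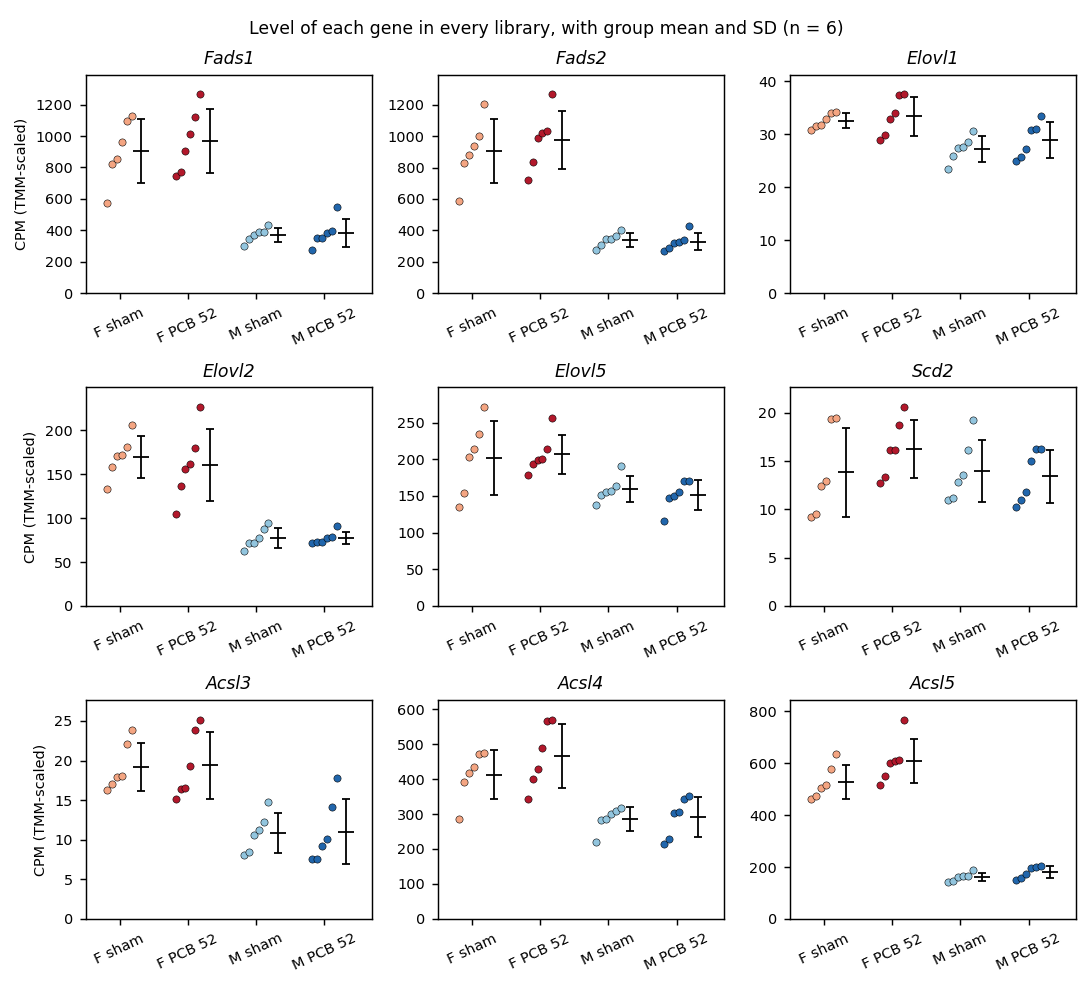
TMM-scaled CPM of the 9 members (vertical axis, linear from 0, with its own scale for each gene) in each library by group, females (F) and males (M), with 1 point per animal sorted by level and the mean and SD of 6 animals beside them. Fads1, Fads2, Elovl2 and Acsl5 separate all 12 females from all 12 males, and no member separates PCB 52 animals from sham animals of the same sex.

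Among the desaturases, Fads1 and Fads2 were far higher in females. Fads1, which encodes the delta-5 desaturase, ran from 575 through a median of 908 to 1131 CPM in sham females and from 302 through 379 to 435 CPM in sham males. The lowest sham female was therefore above the highest sham male. Its log2 difference was 1.28 ± 0.16 (SE; edgeR adjusted p = 5.78e-07) in sham animals. Among PCB 52 animals Fads1 ran from 749 through 959 to 1265 CPM in females and from 277 through 367.06 to 547 CPM in males, a log2 difference of 1.33 ± 0.16 (edgeR adjusted p = 3.05e-07). Here too the ranges did not overlap.

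Fads2, the enzyme that opens the pathway, ran from 587 through 909.5 to 1204 CPM in sham females and from 272 through 346 to 401 CPM in sham males. Its log2 difference was 1.42 ± 0.14 (edgeR adjusted p = 1.42e-08). With exposure it ran from 724 through 1005 to 1267 CPM in females and from 267 through 323 to 428 CPM in males, with a log2 difference of 1.58 ± 0.14 (edgeR adjusted p = 1.95e-09). Again every female was above every male. Sham female replicate 2 (animal 4) was the lowest female for both desaturases, and exposed female replicate 5 (animal 22) was the highest for both.

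Scd2, a stearoyl-CoA desaturase, was the member with no sex difference passing the test in either exposure group. It ran from 9.20 to 19.4 CPM in sham females, from 10.955 to 19.3 CPM in sham males, from 12.7 to 20.6 CPM in PCB 52 females and from 10.27 to 16.3 CPM in PCB 52 males. All these ranges overlapped. The log2 difference between females and males was −0.01 ± 0.18 (95% confidence interval −0.39 to 0.37; edgeR adjusted p = 0.976) in sham animals and 0.28 ± 0.18 (−0.10 to 0.65; edgeR adjusted p = 0.330) in PCB 52 animals. The interval in PCB 52 animals reaches more than 0.5 log2 units, so the result does not show equal levels. The tables also hold its paralog Scd, the main hepatic stearoyl-CoA desaturase, and reads of close copies may be shared. Within groups no relation between the 2 genes' levels passed over the 24 libraries (Pearson r 0.138, Spearman rho 0.130, adjusted permutation p 0.726 and 0.838, over 9 relations). Within females r was 0.478 and within males −0.34, and whether the sexes differ was not tested. The r without the 2 libraries farthest from the median was 0.04.

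Of the elongases among the members, Elovl2 was the one with a large sex difference. Elovl2, which extends polyunsaturated chains toward docosahexaenoic acid, ran from 133 through 171 to 206 CPM in sham females and from 62.8 through 74.5 to 94.3 CPM in sham males. Its log2 difference was 1.13 ± 0.13 (edgeR adjusted p = 1.76e-07). Exposed animals ran from 104 through 159 to 226 CPM in females and from 72.1 through 75.1 to 91.0 CPM in males, a log2 difference of 1.05 ± 0.13 (edgeR adjusted p = 5.61e-07). No male of either exposure group reached the lowest female.

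Elovl5, which acts on the shorter polyunsaturated chains made by FADS2, showed smaller differences with wide spread. In sham animals it ran from 134 through 208 to 271 CPM in females and from 138 through 156 to 190.3 CPM in males, so the female range enclosed the male one. The log2 difference of 0.34 ± 0.13 did not pass (edgeR adjusted p = 0.0600). In PCB 52 animals the females, from 179 through 199 to 256 CPM, were all above the males, from 116 through 153 to 170.0 CPM, and the log2 difference of 0.45 ± 0.13 passed (edgeR adjusted p = 0.0116). The 2 sex differences were not shown to be unequal, since their difference was 0.11 ± 0.18 (edgeR adjusted p = 1.00). The sham difference passed when sham female replicate 2 (edgeR adjusted p = 0.0231), sham female replicate 3 (0.00933), sham male replicate 3 (0.0387) or PCB 52 male replicate 3 (0.0480) was left out. Over all 33 alternatives its adjusted p ran from 0.00933 to 0.229.

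Elovl1, which builds very long saturated and monounsaturated chains, showed the smallest called difference. It ran from 30.8 through 32.4 to 34.3 CPM in sham females and from 23.5 through 27.4 to 30.6 CPM in sham males, which did not overlap but lay close together. The log2 difference was 0.26 ± 0.09 (edgeR adjusted p = 0.0342). It missed the threshold with no filter on low counts (edgeR adjusted p = 0.0581) and without any of 6 single libraries. These were sham female replicates 1 (0.0581), 2 (0.0560) and 6 (0.0702) and sham male replicates 1 (0.0687), 2 (0.0543) and 3 (0.101), with edgeR adjusted p in parentheses. Over all 33 alternatives the adjusted p ran from 0.0166 to 0.101. In PCB 52 animals, at 28.9 through 33.4 to 37.5 CPM in females and 24.9 through 29.0 to 33.5 CPM in males, the ranges overlapped. That log2 difference of 0.21 ± 0.09 did not pass (edgeR adjusted p = 0.0942), though it passed without PCB 52 female replicate 4 (0.0460) or PCB 52 male replicate 2 (0.0426), within a range of 0.0426 to 0.226 over 33 alternatives. The difference between the 2 sex differences was −0.05 ± 0.12 (edgeR adjusted p = 1.00).

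The acyl-CoA synthetases were all higher in females, and Acsl5 had the largest sex difference of the 9 genes in both exposure groups. Acsl5, an enzyme of mitochondria and endoplasmic reticulum, ran from 463 through 509.8 to 636 CPM in sham females and from 144 through 162 to 187 CPM in sham males. Its log2 difference was 1.72 ± 0.10 (edgeR adjusted p = 8.31e-14), and 1.101% of all tested genes had a higher value in that contrast. In exposed animals it ran from 516 through 605 to 767 CPM in females and from 152 through 186 to 204 CPM in males, a log2 difference of 1.75 ± 0.10 (edgeR adjusted p = 5.06e-14). The ranges were far apart in both. Zdhhc6, which overlaps Acsl5 in the GRCr8 annotation and could share reads with it, differed between the sexes by −0.09 ± 0.08 in sham animals and −0.21 ± 0.08 in PCB 52 animals (log2; edgeR adjusted p = 0.486 and 0.0673). Uncharacterized loci also overlap Fads2 and Acsl3 in that annotation and were not analysed here.

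Acsl4, the arachidonate-preferring synthetase, ran from 285 through 426 to 475 CPM in sham females and from 221 through 292 to 317 CPM in sham males. The lowest sham female lay within the male range, and the log2 difference was 0.53 ± 0.14 (edgeR adjusted p = 0.00573). Among exposed animals Acsl4 ran from 342 through 459 to 569 CPM in females and from 214 through 305 to 351 CPM in males, with a log2 difference of 0.68 ± 0.14 (edgeR adjusted p = 5.24e-04). The highest exposed male exceeded the lowest exposed female.

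Acsl3, a synthetase of the endoplasmic reticulum and lipid droplets, was the member with the widest spread among males. It ran from 16.3 through 17.96 to 23.8 CPM in sham females and from 8.01 through 10.9 to 14.8 CPM in sham males, with no overlap and a log2 difference of 0.82 ± 0.19 (edgeR adjusted p = 0.00174). In PCB 52 animals it ran from 15.2 through 17.9 to 25.1 CPM in females and from 7.51 through 9.63 to 17.8 CPM in males. These ranges overlapped, and the log2 difference was 0.81 ± 0.19 (edgeR adjusted p = 0.00185).

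Counted over the members, the female and male ranges did not overlap for 6 of 9 genes in sham animals and for 5 of 9 in PCB 52 animals, in each case with the females higher. Over all 10535 genes tested, the ranges did not overlap for 11.5% in sham animals (6.1% with females higher) and for 9.81% in PCB 52 animals (5.14% with females higher). All 12 females were above all 12 males for Fads1, Fads2, Elovl2 and Acsl5, with ratios of mean CPM of 2.48, 2.82, 2.13 and 3.33. The same separation held for 2.95% of all tested genes, and for 5.43% in either direction. Markers of Kupffer cells and macrophages also differed between the sexes, with 7 of 9 markers higher in sham females and 6 of 9 higher in PCB 52 females. Their summed level ranged from 701 to 850.1 CPM in sham females, 564 to 648 CPM in sham males, 613 to 792 CPM in PCB 52 females and 534 to 652 CPM in PCB 52 males. None of these 9 markers was at 0 in all libraries. Of the hepatocyte markers, 0 of 7 were higher and 2 of 7 lower in females of either exposure group. Their part in the sex differences was not tested.

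**Figure D2:**
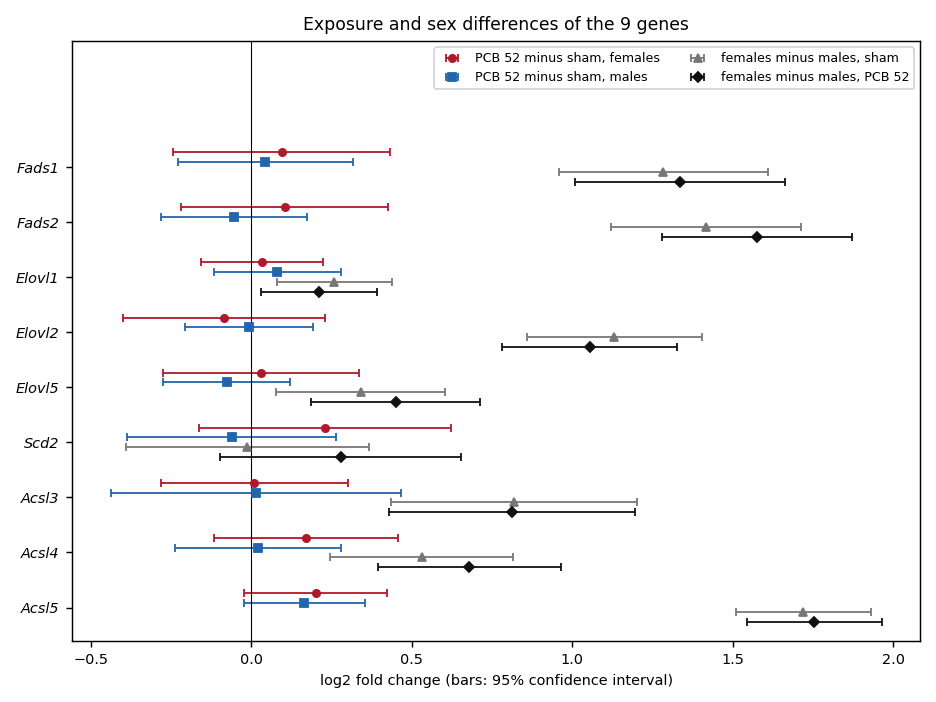
Log2 fold changes of the 9 members (horizontal axis) with bars for their 95% confidence intervals in the contrasts of exposure within each sex and of females with males within each exposure group. The exposure intervals all include 0, while the sex intervals of Fads1, Fads2, Elovl2 and Acsl5 lie far from it.

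**Figure D3:**
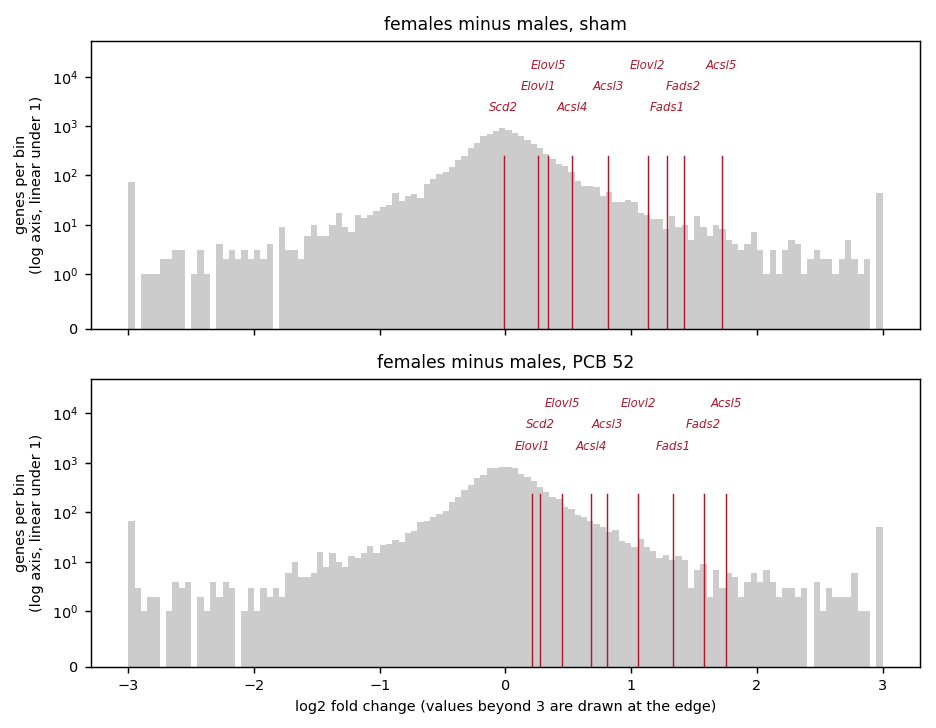
Histograms of the log2 differences between females and males of all genes tested, in sham (upper panel) and PCB 52 animals (lower panel), with genes per bin on a log axis, values beyond 3 drawn at the edge and the 9 members as vertical lines. Acsl5, Fads2, Fads1 and Elovl2 lie in the upper tail above 1, and Scd2 and Elovl1 lie near the centre.

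PCB 52 exposure gave no called change in any of the 9 genes. In females 0 of 9 members passed, against 0% of 10251 genes tested, and in males 0 of 9 passed, against 0% of 10180. In edgeR, 1021 genes in females and 585 in males had an unadjusted p under 0.05, and none of the members was among them in either sex. No member was called by DESeq2 or limma-voom either, which called 28 and 0 genes overall in females and 1 and 0 in males. Exposed and sham ranges overlapped for all 9 genes in both sexes, while over 10535 genes they did not overlap for 0.38% in females and 0.218% in males. The smallest adjusted p over all genes was 0.172 in females and 0.322 in males in edgeR.

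Among the desaturases, Fads1 differed between exposed and sham females by 0.09 ± 0.16 log2 units (95% confidence interval −0.24 to 0.43; edgeR adjusted p = 0.867). Without sham female replicate 2, the low library named above, its difference was −0.01. Fads2 differed by 0.10 ± 0.15 (−0.22 to 0.43; edgeR adjusted p = 0.842). In males the differences were 0.04 ± 0.13 for Fads1 (−0.23 to 0.32; edgeR adjusted p = 0.957) and −0.05 ± 0.11 for Fads2 (−0.28 to 0.17; edgeR adjusted p = 0.938). The intervals leave room for changes of up to 0.43 log2 units in females, so they do not show that the levels were equal. Scd2 differed by 0.23 ± 0.19 in females (−0.16 to 0.62; edgeR adjusted p = 0.694) and −0.06 ± 0.16 in males (−0.39 to 0.26; edgeR adjusted p = 0.951). For comparison, its paralog Scd had mean levels of 3796 ± 1759 CPM in PCB 52 females and 1812 ± 613 CPM in sham females (SD, n = 6). That log2 difference of 1.06 ± 0.37 did not pass (edgeR adjusted p = 0.430). Nor did the Scd difference of 0.60 ± 0.33 in males or of 0.84 ± 0.25 on average (edgeR adjusted p = 0.829 and 0.173).

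None of the elongases showed a called difference in either sex. Elovl2 differed by −0.08 ± 0.15 in exposed females (95% confidence interval −0.40 to 0.23) and by −0.01 ± 0.10 in exposed males (−0.21 to 0.19). Elovl5 differed by 0.03 ± 0.14 in females (−0.27 to 0.34) and by −0.08 ± 0.09 in males (−0.27 to 0.12). Elovl1 differed by 0.03 ± 0.09 in females (−0.16 to 0.22) and by 0.08 ± 0.09 in males (−0.12 to 0.28). The edgeR adjusted p of these 6 values were all above 0.8.

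Acsl5 came closest to a difference with exposure. Exposed females ran from 516 through 605 to 767 CPM against 463 through 509.8 to 636 CPM in sham females, and exposed males from 152 through 186 to 204 CPM against 144 through 162 to 187 CPM. In each sex the exposed range was shifted up but overlapped the sham range. The log2 difference was 0.20 ± 0.11 in females (95% confidence interval −0.02 to 0.42; edgeR adjusted p = 0.544) and 0.17 ± 0.09 in males (−0.02 to 0.36; edgeR adjusted p = 0.829). The average of both sexes was 0.19 ± 0.07 (0.04 to 0.33), with an unadjusted p of 0.0134 and an adjusted p of 0.227 in edgeR, so it did not pass. In females 5 of 6 exposed animals, and in males 4 of 6, were above the mean of the sham animals of their sex.

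In the average response of both sexes 0 of 9 members were called, against 0% of 10535 genes tested, and Acsl5 was the only member among the 1625 genes with an unadjusted p under 0.05 in edgeR. DESeq2 called 105 genes and limma-voom 0 in that contrast, and neither called a member. Acsl4 and Acsl3 had no called difference with exposure in either sex. Acsl4 differed by 0.17 ± 0.14 in exposed females (95% confidence interval −0.12 to 0.46; edgeR adjusted p = 0.692) and by 0.02 ± 0.12 in exposed males (−0.24 to 0.28; edgeR adjusted p = 0.981). Acsl3 differed by 0.01 ± 0.14 in females (−0.28 to 0.30; edgeR adjusted p = 0.991) and by 0.01 ± 0.21 in males (−0.44 to 0.47; edgeR adjusted p = 0.994). The width of these intervals does not show equal levels. No difference between the responses of the sexes passed for any member, with 0% of 10535 genes called overall and 239 genes at an unadjusted p under 0.05 in edgeR. The same contrast gave 0 calls in DESeq2 and in limma-voom. The largest difference of responses among the members was that of Scd2, 0.29 ± 0.26 (95% confidence interval −0.24 to 0.82; edgeR adjusted p = 1.00), followed by that of Fads2, 0.16 ± 0.20.

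Acsl4 was the member most closely related to the library axis described above, which passed by Spearman's rho but not by Pearson's r. Its group-centred log2 CPM was related to the axis score over 24 libraries with Pearson r 0.623 (permutation p 0.006, adjusted p 0.054 over 9 relations) and Spearman rho 0.673 (adjusted permutation p 0.0231). Without the 2 libraries farthest from the median, r was 0.608, and within females and males it was 0.626 and 0.63. For the other 8 members r ran from −0.014 to 0.361, and none passed adjustment by either measure. The mean axis score, with group means kept, was −4.16 in sham and 4.16 in PCB 52 females and −3.3 in sham and 3.3 in PCB 52 males. With that score in the model, an alternative chosen after seeing the data, the exposure difference of Acsl4 was 0.02 in females, against 0.17 without it, and −0.02 on average, against 0.10. With the score whose group means are 0 the average was 0.08. Without animals 13 to 16 the average was 0.00. The sex difference of Acsl4 was 0.54 in sham animals and 0.66 in PCB 52 animals with the group means kept in the score, and it remained called. That score was centred within each sex, so it could take up little of a sex difference and is no check of it. Without animals 13 to 16 the sex differences of Acsl4 were 0.53 and 0.67 (edgeR adjusted p = 0.00781 and 0.00814).

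Among animals of the same group, Fads1 and Fads2 rose and fell together. Over the 24 libraries with group means removed, Fads1 and Fads2 had Pearson r 0.904 and Spearman rho 0.905. The permutation p of both was 1e-05, the smallest that 100000 permutations within groups can give, and the adjusted p over 36 pairs of members was 0.00036. Without the 2 libraries farthest from the median, r was 0.852. Within females r was 0.953 (adjusted permutation p 0.00108) and within males 0.817 (adjusted permutation p 0.190), which did not pass over 36 pairs. The 2 genes are neighbours, as described with their sequences above. Animal 4 was the lowest female and animal 22 the highest for both, and animal 23 was the highest male for both. Scd2, the remaining desaturase gene, had r −0.227 with Fads1 and −0.297 with Fads2 (rho −0.366 and −0.389), and neither passed.

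Elovl2 followed the desaturases less closely. Fads1 and Elovl2 had r 0.678 (adjusted permutation p 0.00828) and rho 0.577 (adjusted permutation p 0.0875), with r 0.614 without the 2 farthest libraries, 0.729 in females and 0.589 in males. Fads2 and Elovl2 had r 0.612 (adjusted permutation p 0.0431) and rho 0.504 (adjusted permutation p 0.144), with r 0.527 without the 2 farthest libraries, 0.710 in females and 0.372 in males. The Fads2 and Elovl2 relation missed the threshold in 13 of the 24 sets with 1 library left out, with the library axis regressed out (r 0.591, adjusted permutation p 0.0598) and without animals 13 to 16 (r 0.616, adjusted permutation p 0.131). By Spearman's rho neither relation of Elovl2 passed. In total 3 of 36 pairs passed by Pearson's r and 1 by Spearman's rho, and all 3 were positive. With females alone 1 pair passed by Pearson's r, and with males alone 0 did. Fads1 and Elovl5 had r 0.746 in females and −0.054 in males, and over both r 0.486 and rho 0.460 did not pass (adjusted permutation p 0.185 and 0.209). Whether the sexes differ in that relation was not tested. Over all 36 pairs the median r was 0.18, and 25 were positive.

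**Figure D4:**
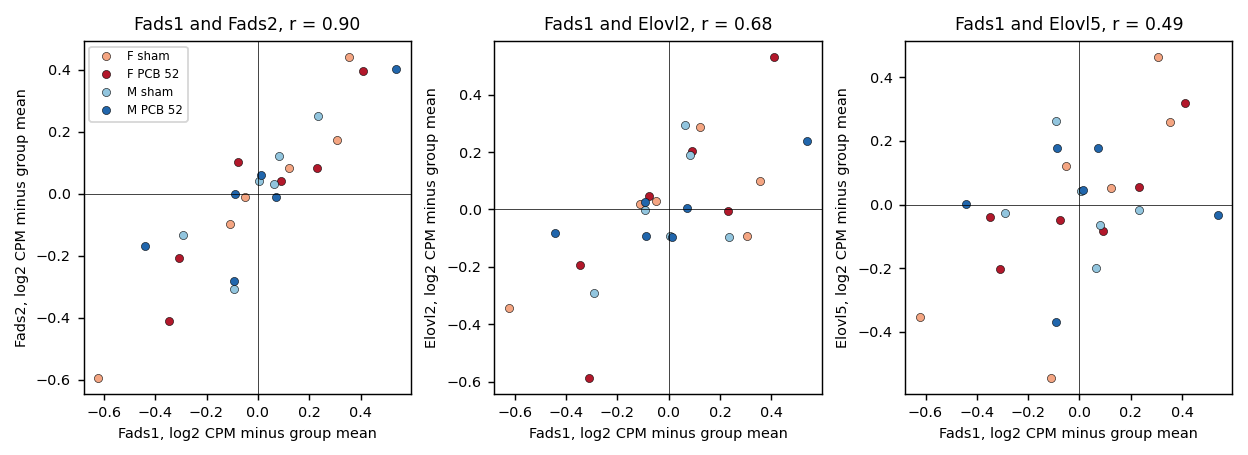
Log2 CPM minus the group mean for Fads1 (horizontal axes) against Fads2, Elovl2 and Elovl5 (vertical axes), with 1 point per animal coloured by group and the Pearson r over 24 libraries above each panel. Fads1 and Fads2 lie along a line, with r 0.904, and the spread widens for Elovl2 (r 0.678) and Elovl5 (r 0.486).

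The genes whose group-centred levels were most like each member were sought among 10476 tested genes over the same 24 libraries, as a description. For Fads1 they were Spata7 (r 0.755), Gabpb1 (0.750) and Vps29 (0.730), and for Fads2 they were Nans (0.710), Psmd5 (0.708) and Tmem126a (0.684), with other members left out of the search. For both desaturases the r of 0.904 between them was higher than that of any of these genes. For Elovl1 they were Mrto4 (0.765), Serpina3c (0.757) and Atf4 (0.740), and for Elovl2 they were Pank1 (0.727), rnf141 (0.708) and Tnpo1 (0.684). For Elovl5 they were Rcbtb2 (0.794), Sgms2 (0.751) and Agk (0.713), and for Scd2 Nxpe1 (0.712), Man1a2 (0.701) and Cyria (0.699). The 2 genes closest to Acsl3 after Calu (0.820) were Fdps (0.818), an enzyme of isoprenoid and cholesterol synthesis, and Acss2 (0.781), which makes acetyl-CoA from acetate. For Acsl4 they were Il6st (0.827), the shared receptor subunit of interleukin-6 type cytokines, Clk1 (0.814) and Ppp1cb (0.808). For Acsl5 they were Psmg1 (0.785), Iyd (0.776) and Nupr1 (0.773). All these values share library and depth.

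Other genes of the same metabolism were described from 6 lists. Their counts stand against 10.7% of all genes tested called higher in sham females and 20.3% called in either direction. In PCB 52 animals these shares were 10.1% and 19.9%. Of 11 tested genes of other desaturases and elongation machinery, 4 were higher and 1 lower in sham females, with a median log2 difference of 0.11. The most different named gene was Elovl6, which elongates saturated chains such as palmitate. Mean Elovl6 levels were 7.80 ± 5.76 CPM for sham males and 76.7 ± 22.9 CPM for sham females (SD, n = 6). That is a log2 difference of 3.30 ± 0.41 (edgeR adjusted p = 2.81e-06), and in PCB 52 animals the difference was 3.77 ± 0.40 (edgeR adjusted p = 3.18e-07). With exposure, Elovl6 differed by 0.91 ± 0.28 in females, 0.44 ± 0.48 in males and 0.68 ± 0.28 on average. None of these exposure differences passed (edgeR adjusted p = 0.395, 0.893 and 0.257). Fads3, the third gene of the desaturase cluster, differed by 0.59 ± 0.19 in sham animals (edgeR adjusted p = 0.0245) and by 0.26 ± 0.20 in PCB 52 animals (edgeR adjusted p = 0.418). The remaining steps of the elongation cycle did not move as one. Hsd17b12, its reductase of ketoacyl-CoA, was lower in females by −0.27 ± 0.09 (edgeR adjusted p = 0.0316), Hacd3, a dehydratase, was higher by 0.34 ± 0.09 (edgeR adjusted p = 0.00403), and Tecr, the final reductase, differed by 0.03 ± 0.08 (edgeR adjusted p = 0.860). Elovl3 had no counts in any library.

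Of 14 tested genes of other acyl-CoA synthetases and acyl-CoA handling, 7 were higher and 1 lower in sham females, with a median of 0.37, and the counts were the same in PCB 52 animals. Acsl1, the main hepatic long-chain synthetase, was higher by 0.35 ± 0.08 (edgeR adjusted p = 0.00134), and Fabp1, the liver fatty acid binding protein, by 1.04 ± 0.13 (edgeR adjusted p = 7.68e-07). Slc27a2 and Slc27a5, which activate very long chains and bile acids, differed by 0.12 ± 0.07 and 0.22 ± 0.12 (edgeR adjusted p = 0.276 and 0.202). Of 11 tested genes of phospholipid acyl remodelling, 4 were higher and 0 lower in sham females (median 0.23), and 3 and 0 in PCB 52 females. Lpcat3, which places polyunsaturated chains into phospholipids, was higher by 0.37 ± 0.10 (edgeR adjusted p = 0.00582), and the phospholipase Pla2g6 differed by 0.18 ± 0.16 (edgeR adjusted p = 0.503). Mboat7 was not analysed here.

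Peroxisomal shortening, the last stage in making docosahexaenoic acid, showed changes in both directions. Of 14 tested genes, 3 were higher and 2 lower in sham females (median 0.02), and 3 and 3 in PCB 52 females. Hsd17b4, the bifunctional enzyme of that route, differed by 0.00 ± 0.07 (edgeR adjusted p = 0.980). Of 13 eicosanoid and epoxide enzymes tested, 2 were higher and 3 lower in sham females (median 0.08), and 3 and 2 in PCB 52 females. Ptgs1, a cyclooxygenase, differed by 0.22 ± 0.11 in sham animals and 0.34 ± 0.11 in PCB 52 animals (edgeR adjusted p = 0.180 and 0.0280). Ephx2, the soluble epoxide hydrolase, differed by 1.42 ± 0.71 and −0.06 ± 0.69 (edgeR adjusted p = 0.187 and 0.975).

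Of 18 transcriptional regulators, 3 were higher and 0 lower in sham females (median 0.14), and 6 and 1 in PCB 52 females. Insig1, which restrains SREBP processing, was higher in females by 1.76 ± 0.29 in sham animals (edgeR adjusted p = 7.70e-05) and by 1.54 ± 0.28 in PCB 52 animals (edgeR adjusted p = 3.14e-04). Srebf1, which encodes an SREBP known to drive desaturase genes, differed by 0.14 ± 0.17 in sham animals and −0.25 ± 0.17 in PCB 52 animals (edgeR adjusted p = 0.658 and 0.369). Ppara, a receptor for fatty acids, differed by −0.40 ± 0.19 and −0.62 ± 0.19, the second of which passed (edgeR adjusted p = 0.167 and 0.0229). Insig2 and Nr1h3 differed by 0.01 ± 0.24 and 0.18 ± 0.07 in sham animals (edgeR adjusted p = 0.987 and 0.0833). In the contrasts of exposure within each sex, 0 genes of the 6 lists were called by edgeR. In females those with an unadjusted p under 0.05 numbered 4 of 11, 1 of 14, 2 of 10, 1 of 14, 2 of 12 and 1 of 18, in the order above. In males they numbered 0 of 11, 1 of 13, 1 of 10, 1 of 14, 1 of 11 and 1 of 18. Over all genes tested, 9.96% in females and 5.75% in males had an unadjusted p under 0.05 in edgeR.

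**Figure D5:**
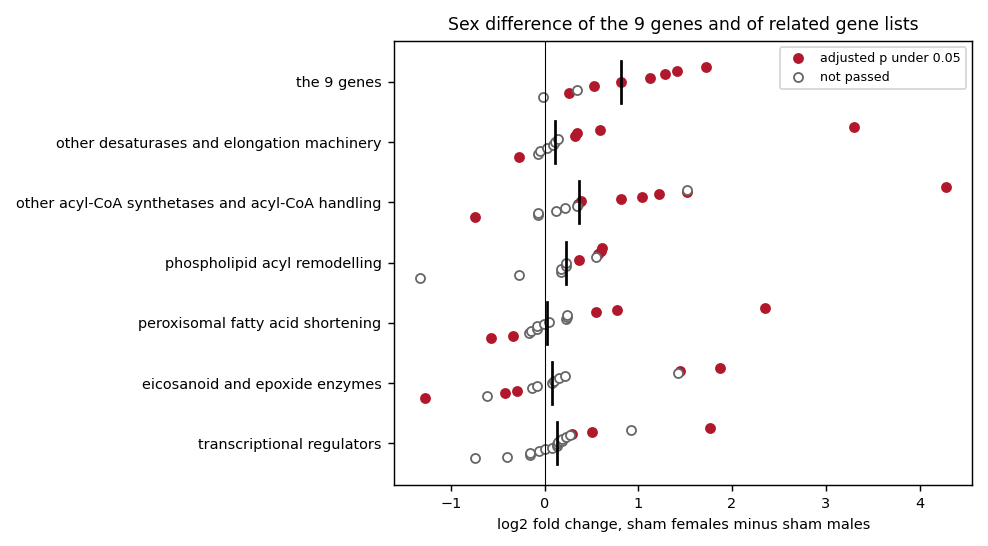
Log2 differences between sham females and sham males (horizontal axis) for the 9 members and the tested genes of the 6 lists, with 1 point per gene, filled where the edgeR adjusted p was under 0.05, and a line at each median. The members' median of 0.82 lies above the medians of the lists, which run from 0.02 to 0.37.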

How the data were processed

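Liver RNA of 24 rats was sequenced in bulk, with 1 library per animal. Values are gene counts, deposited by the authors without normalization in 1 table per sex. The submitters' processing notes name FastQC for read quality, HISAT2 for alignment and the build rn6. Counting tool, strand setting and annotation are not given in the sources used here, so reads of overlapping genes could not be told apart. Symbols were taken for 15230 of 15319 Entrez IDs from RefSeq (GRCr8), and the rest held up to 2.3% of the counts of a library. Replicates are separate animals, numbered in accession order, and no pair of them agreed within sampling noise (lowest chi-square per degree of freedom 6.68).

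Counts were fitted with edgeR 4.0.16 (robust quasi-likelihood, TMM, filterByExpr with minimum count 10 and minimum total 15) in R 4.3.3. Benjamini-Hochberg adjustment ran over all genes, with a threshold of 0.05. Exposure was fitted within each sex's table, and the response difference, average response and sex contrasts in 1 fit of 24 libraries. Covariation used log2 CPM (prior count 2) with group means removed, 100000 permutations within groups and two-sided p. Alternatives were RLE factors, other filters, DESeq2 1.42.0, limma-voom 3.58.1, the library axis as a covariate, leaving out animals 13 to 16 and leaving out each library. The axis with group means kept and neighbouring animal numbers as a block were chosen after seeing the data. The members, lists and alternatives were chosen with earlier results of these data known. Named genes were all members, preset genes of the 6 lists (1 of them is not reported here), and the 3 genes most like each member. Scripts were tested on simulated data. With Entrez IDs only and no genome of the authors' build, no rn6 coordinates are given, and protein sequences were not used here.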

Additional observations from a re-analysis of the deposited data

Results flagged for a closer look

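In each of 36 sets of 6 values (9 members in 4 groups), the highest and lowest animal was compared with the others by Dixon's test, which chance passes in about 1 set in 20. For 2 sets an animal stood apart. Elovl2 in PCB 52 male replicate 6 (animal 23) was at 91.0 CPM, with the nearest animal at 78.4 CPM and a gap of 0.666 of the group's range. Without that library the exposure difference of Elovl2 in males was −0.06 ± 0.09 (log2; edgeR adjusted p = 0.965). Acsl4 in sham male replicate 4 (animal 7) was at 221 CPM, with the nearest animal at 284 CPM and a gap of 0.652 of the range. Without it the exposure difference of Acsl4 in males was −0.05 ± 0.12 (edgeR adjusted p = 0.960). The cause of either value was not tested.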

How the results depend on the processing

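The labels give no shared replicate numbers. Neighbouring animal numbers (a male and a female of the same exposure) deviated together unevenly, with correlations over genes from −0.0406 to 0.221 across 12 pairs. A fit with them as a block, added after seeing the data, kept each member's call in the sex contrasts and called 7 members in sham and 7 in PCB 52 animals, with 0 called in the response difference. Exposure itself cannot be tested with that block. No member was called in any contrast of exposure under any alternative. The members called in the sham sex contrast numbered 6 to 8 and in the PCB 52 sex contrast 7 to 8. Pairs of members passing by Pearson's r numbered 3, against 1 in females alone, 0 in males alone, 2 without animals 13 to 16, 2 with the axis regressed out and 2 to 3 with each library left out. Over all genes in the female table, DESeq2 called 28 genes and the axis covariate 22, with at most 8 when 1 library was left out and 1 in a fit of all 24 libraries. In males DESeq2 called 1 gene and the axis covariate 11. In the average response DESeq2 called 105 and the axis covariate 440, with at most 15 when 1 library was left out, against 0 in edgeR. The axis covariate of these counts had group means of 0, so it could not take up an exposure difference. With the axis with group means kept, 0 genes were called in females, in males and on average. Without animals 13 to 16 these counts were 0 as well.

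Uncalled differences near 0 changed sign under some settings (log2). With limma-voom, the male values were 0.0058 for Elovl2, −0.046 for Acsl3 and −0.0053 for Acsl4, the response difference of Acsl3 was 0.085, and the averages were 0.020 for Elovl5 and −0.0049 for Acsl3. With the axis as a covariate, Acsl3 was −0.0055 in males and 0.016 in the response difference. With the axis with group means kept, Acsl3 was −0.043 in females, −0.11 in males and −0.075 on average, Acsl4 −0.073 in males and −0.018 on average, and Fads2 −0.0011 on average. Without animals 13 to 16, Elovl1 in females was −0.0034, the male values were 0.014 for Elovl2, −0.094 for Acsl3 and −0.066 for Acsl4, and Acsl3 was 0.16 in the response difference and −0.015 on average. With each library left out, female values ran from −0.077 to 0.078 for Acsl3, −0.0083 to 0.17 for Fads1, −0.062 to 0.13 for Elovl5, −0.0037 to 0.074 for Elovl1 and −0.21 to 0.016 for Elovl2. Male values ran from −0.085 to 0.12 for Fads1, −0.17 to 0.12 for Acsl3, −0.063 to 0.055 for Elovl2, −0.049 to 0.089 for Acsl4 and −0.13 to 0.049 for Scd2. Response differences ran from −0.051 to 0.18 for Fads1, −0.12 to 0.18 for Acsl3, −0.19 to 0.027 for Elovl2 and −0.042 to 0.10 for Acsl5. Averages ran from −0.071 to 0.029 for Elovl5, −0.078 to 0.070 for Acsl3, −0.020 to 0.078 for Fads2 and −0.11 to 0.0027 for Elovl2. The sham sex difference ran from −0.14 to 0.097 for Scd2. With neighbouring numbers as a block, the response difference of Acsl3 was 0.012. The cause of these changes was not tested.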

Other observations

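The members' within-group levels were also compared with sequencing depth and with Scd. None of the 9 members was related to the library total after adjustment over 9 relations. The strongest was Elovl2, with Pearson r −0.513 (permutation p 0.0428, adjusted p 0.385) and Spearman rho −0.35 (adjusted permutation p 0.588) over 24 libraries, and r −0.17 without the 2 libraries farthest from the median. None was related to Scd either. Acsl5 had r 0.485 (permutation p 0.0262, adjusted p 0.235) and rho 0.423 (adjusted permutation p 0.319), and r 0.36 without the 2 farthest libraries. Elovl5 and Scd had r 0.8 among males and 0.159 among females, against 0.377 over both (adjusted permutation p 0.371) and rho 0.232 (adjusted permutation p 0.657), and whether the sexes differ was not tested.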
